A study of Mus musculus with 21 samples.

Results

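Added biglycan was compared with no added protein in mouse CD11b+ peritoneal cells stimulated with CpG DNA. The comparison takes 4 of the 21 libraries of the series, chosen by their treatment labels and matched within genotype. In wild type and in Bgn-/-, 1 library of cells given recombinant biglycan (10 µg/mL) for 1 h and then CpG DNA (1 µM) for 6 h was set against 1 library given CpG alone for 6 h. The mice had the C57BL/6 background (n = 10 in the labels) and had received no eliciting agent; the knockout mice are described as Bgn-/0 and Bgn-/-. Cells washed out of the peritoneal cavity were selected for CD11b with a kit and kept overnight in culture. The other 17 libraries hold wild type, Bgn-/- and Lum-/- cells with LPS (100 ng/mL) or CpG, with recombinant biglycan or lumican, with a protein and a stimulus together, or untreated. Each combination of genotype and treatment has this single library and wells are not assigned to animals in the labels, so genotype and cell preparation cannot be told apart, and p-values measure only the spread between libraries.

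Biglycan is a small leucine-rich proteoglycan of the extracellular matrix. When released from matrix it is known as a danger signal that macrophages sense through the surface receptors TLR2 and TLR4, with CD14 as a partner. CpG DNA is sensed inside endosomes by TLR9, which signals through the adaptor MYD88 to NF-kB, a driver of cytokine genes, and to IRF7, a driver of type I interferon and thereby of antiviral genes.

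Levels are given as TPM, the share of a library that a gene's transcripts hold after correction for their length. Differences are biglycan with CpG minus CpG alone on the log2(TPM + 1) scale, which understates changes of low genes. The targeted gene Bgn was at 0.961 and 0.542 TPM without and with biglycan in wild type, and at 3.49 and 3.03 TPM in the libraries labelled Bgn-/-. Its level was thus higher under the knockout label than in wild type, though low throughout. Expression therefore does not bear that label out. Lum was at 0 to 1.40 TPM over the 9 wild-type libraries and at 0.823 to 14.1 TPM over the 6 labelled Lum-/-. Expression does not bear that label out either, and every Bgn-/- or Lum-/- value below is that of a library as labelled. RNA does not show the added protein itself. Estimated depth was 21.2 M reads for CpG alone and 13 M for biglycan with CpG in wild type, and 19.2 and 17.1 M in the libraries labelled Bgn-/-. The labels give 2 concentrations and do not say of what. For biglycan with CpG against CpG alone the first was 137.06 against 190.73 nM in wild type and 230.53 against 280.2 nM in Bgn-/-, and the second 134.89 against 147.3 and 163.82 against 162.05 ng/mL. The part of depth and concentration in the results was not tested.

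With added biglycan no gene passed the test over both pairs. The error of this test draws on how far the wild-type and Bgn-/- pair differences disagree under CpG and under LPS. A difference present in a single genotype therefore counts as error. In the limma fit of 8 stimulated libraries, 0 of 11550 genes were called higher and 0 lower (0% each, Benjamini-Hochberg adjusted p under 0.05). At an unadjusted p under 0.05 there were 965 genes, 700 higher and 265 lower, and the smallest adjusted p was 0.0526. No gene below is called changed, and "higher" and "lower" describe the libraries. A limma fit of the 4 libraries alone called 23 genes (9 higher, 14 lower). Of these, 10 have a proper gene symbol: Arg1, Cxcl13, Ccl24, Tgfbi and Wfdc21 lower, and Mfn1, Apbb3, Slc6a12, Fxyd2 and Cxcl2 higher. Leaving out the LPS pair of Bgn-/- or of wild type gave 14 or 17 calls. These alternatives have fewer residual degrees of freedom than the 2 of the main fit, so their calls are not taken as stronger evidence.

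By size, the wild-type pair held 72 genes at least 2-fold higher (0.623%) and 119 at least 2-fold lower (1.03%), and the pair labelled Bgn-/- held 63 (0.545%) and 65 (0.563%). In both pairs 7 genes were at least 2-fold higher (0.0606%) and 12 at least 2-fold lower (0.104%), and of these 19 a single one, Arg1, has a proper gene symbol. At 1.5-fold the counts in both pairs were 43 higher (0.372%) and 42 lower (0.364%), or 25 and 48 after median-of-ratios scaling. Over the 5536 genes whose mean reached 20 TPM, the SD of the differences was 0.255 in wild type and 0.191 in the Bgn-/- pair, against 0.198 to 0.288 in the 6 other pairs of wells with and without an added protein. The median gene was 0.11 higher in the wild-type pair and 0.02 higher in the other. Median-of-ratios scaling, which sets this shift near 0, moved the share of genes higher in wild type from 70.4% to 47.1% and the unadjusted split from 700 higher and 265 lower to 283 and 489. Small differences are therefore read against the median, while the 24 genes named for a shared direction kept their sign under this scaling and under quantile normalization.

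**Figure D1:**
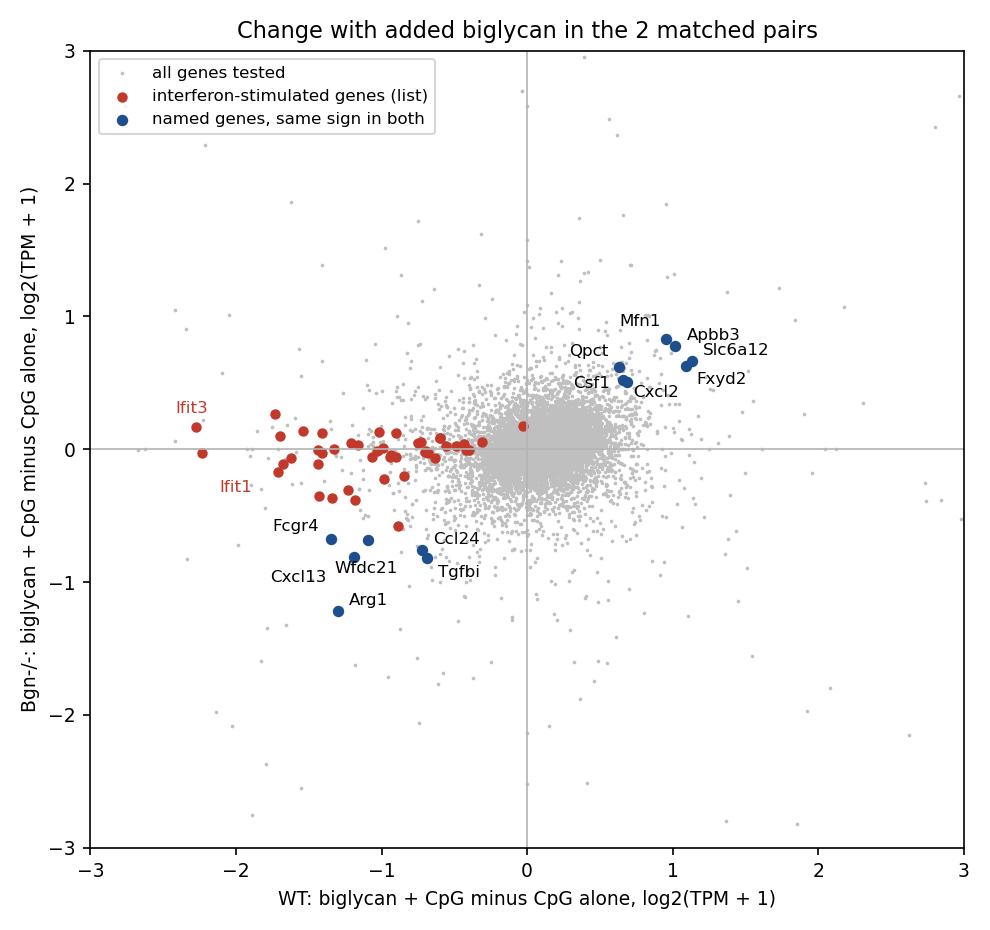
Difference between biglycan with CpG and CpG alone for each of 11550 genes in wild type (x axis) and in the libraries labelled Bgn-/- (y axis), on the log2(TPM + 1) scale; 28 genes lie outside the axes. Arg1 lies away from 0 in both pairs, while the 45 interferon-stimulated genes (red) spread along the x axis and stay near 0 on the y axis.

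Genes lower with biglycan in both pairs include Arg1 and the chemokines Cxcl13 and Ccl24. Arg1 (chr10:24915221-24927484), the arginase that takes arginine away from nitric oxide synthesis and marks alternatively activated macrophages, was at 19.2 and 7.20 TPM without and with biglycan in wild type, and at 18.4 and 7.36 TPM in the libraries labelled Bgn-/-. The 2 CpG wells were alike, and so were the 2 biglycan wells. The mean of both differences was -1.26 ± 0.12 (n = 2 pairs, limma adjusted p = 0.103). Each ± is the moderated SE of the limma fit, not the spread of the 2 pairs alone. For means over both pairs it also draws on the LPS pairs and on the other genes. Over 16 alternatives its adjusted p ranged from 0.00542 to 1.0. The list of alternative activation as a whole went both ways. Of 11 tested genes, 4 were higher in both pairs (43.3% of all genes were), 5 lower in both (17.1%) and 0 called.

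Cxcl13, a chemokine that draws B cells and is made by peritoneal macrophages, was at 226 and 98.7 TPM in wild type and at 584 and 333 TPM in the libraries labelled Bgn-/-. Its level was higher under the Bgn-/- label, and the biglycan well was the lower in each genotype (mean difference -0.999 ± 0.14, limma adjusted p = 0.271). Ccl24, an eosinophil chemokine, went from 42.2 to 25.3 TPM in wild type and from 61.1 to 35.7 in the Bgn-/- pair (-0.74 ± 0.13). Tgfbi, a matrix protein induced by TGF-beta, went from 322 to 199.7 TPM and from 319 to 181 TPM (-0.75 ± 0.08, limma adjusted p = 0.152). Both biglycan wells lay below both CpG wells for Arg1, Ccl24 and Tgfbi. Genes named for a shared direction were ranked by their differences in these same libraries. Such separation, here and below, thus follows in part from the choice, and its share over all genes was not counted.

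Fcgr4, an activating receptor for IgG, went from 17.5 to 6.26 TPM in wild type and from 12.3 to 7.30 TPM in the Bgn-/- pair (-1.01 ± 0.18). Wfdc21 went from 23.8 to 10.7 TPM and from 26.7 to 16.3 TPM, on as few as 22 estimated reads in a library. For these 2 genes, too, both biglycan wells lay below both CpG wells. Cacna1d, a calcium channel subunit, went from 8.45 to 5.11 TPM and from 15.95 to 8.68 TPM, and Iigp1, an interferon-induced GTPase, from 34.3 to 18.1 TPM and from 13.6 to 8.78 TPM. Both were lower within each genotype, but the most abundant transcript of Cacna1d alone gave a mean difference of -0.096. The same rule names 4 immunoglobulin genes, products of B cells. Ighg2c went from 10.7 to 6.27 TPM and from 10.7 to 6.503 TPM, while the segments Ighv1-22, Igkj4 and Iglj1 are short, have near-identical copies and are uncertain.

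Genes higher with biglycan in both pairs include neutrophil chemokines and a solute transporter. Slc6a12 (chr6:121343076-121365775), a transporter of betaine and GABA, was at 40.1 and 89.2 TPM without and with biglycan in wild type, and at 28.2 and 45.3 TPM in the libraries labelled Bgn-/- (0.90 ± 0.13, limma adjusted p = 0.271). Fxyd2, the gamma subunit of the sodium pump, went from 27.3 to 59.4 TPM and from 25.0 to 39.3 TPM (0.86 ± 0.14). Mfn1, a GTPase of mitochondrial fusion, went from 13.8 to 27.7 TPM and from 13.95 to 25.6 TPM (0.89 ± 0.10, limma adjusted p = 0.17). Both biglycan wells lay above both CpG wells for Slc6a12, Fxyd2 and Mfn1. The most abundant transcript of Mfn1 alone differed by 0.29. Apbb3, an adaptor that binds the amyloid precursor protein, went from 11.5 to 24.1 TPM and from 19.7 to 34.4 TPM (0.89 ± 0.14, and 2.36 for its most abundant transcript). Csf1, the macrophage growth factor, went from 7.80 to 13.2 TPM and from 5.00 to 7.54 TPM, but its most abundant transcript alone gave a mean difference of -0.11.

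The other named genes of this kind were similar in size in both pairs. Qpct, an enzyme that closes the amino end of some chemokines, went from 11.4 to 18.2 TPM in wild type and from 11.4 to 18.1 TPM in the Bgn-/- pair. Tnfrsf23, a decoy receptor for TRAIL, went from 10.5 to 16.6 TPM and from 10.1 to 15.5 TPM, and Atg16l2, a relative of an autophagy protein, from 8.48 to 13.6 TPM and from 9.06 to 13.6 TPM. Kdm4b, a histone demethylase, and Chchd10, a mitochondrial protein, differed by 0.62 ± 0.19 and 0.54 ± 0.16. The most abundant transcript alone gave 0.39 for Qpct and 0.077 for Chchd10, and a fit of all 21 libraries gave 0.34 for Kdm4b. Ms4a1, the B cell antigen CD20, went from 9.02 to 14.9 TPM and from 9.93 to 15.7 TPM. The B cell marker Cd79b (from 24.9 to 31.9 TPM and from 26.6 to 33.0 TPM) was also higher in both pairs. Of 14 B cell markers, 6 were higher in both (43.3% of all genes were) and 5 lower in both (17.1%). The summed level of these markers was 1500 and 1462 TPM in wild type and 1734 and 1633 TPM in the other pair. The part of B cells in these values was not tested, and in bulk samples fewer cells of a type and less RNA per cell cannot be told apart.

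**Figure D2:**
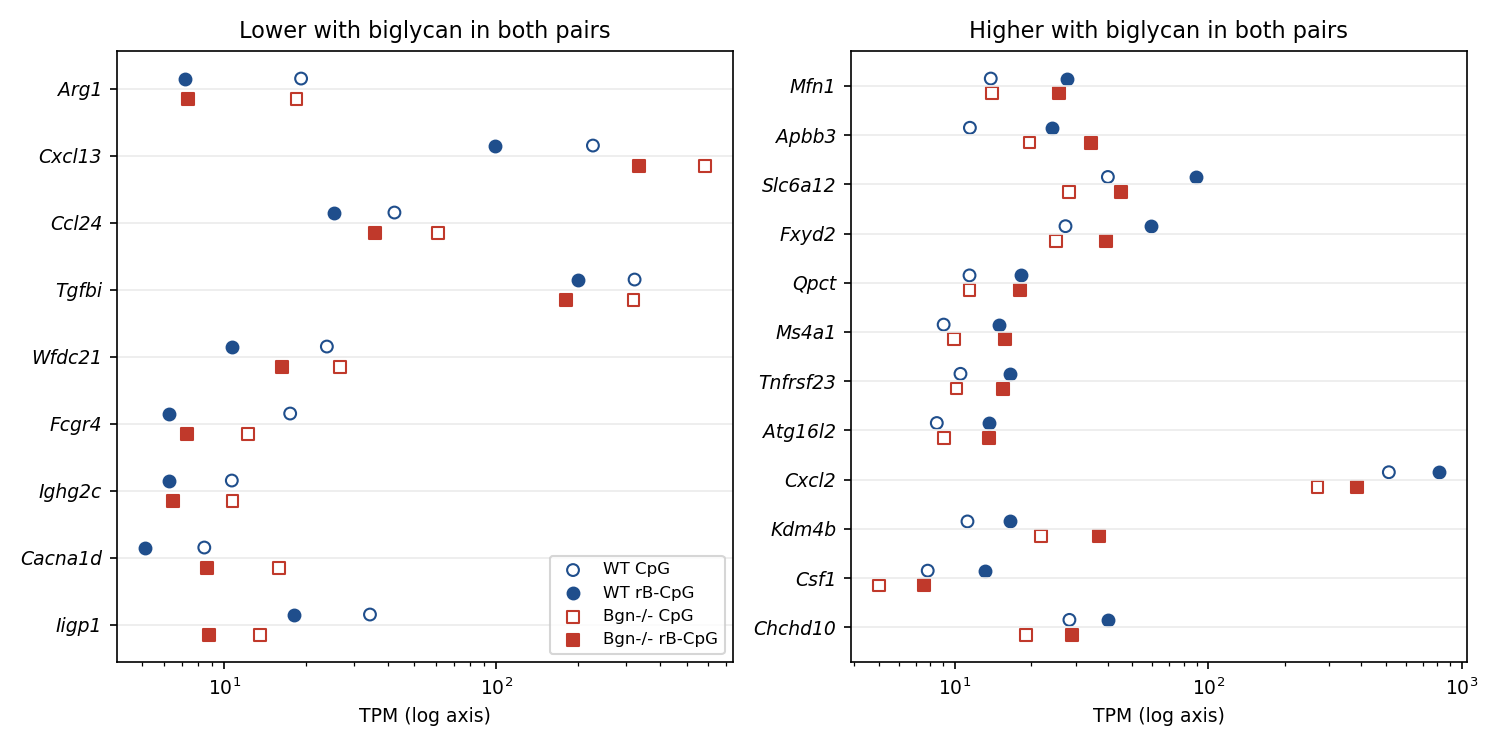
TPM (log axis) of genes named for a shared direction in the 4 libraries, by genotype and treatment as the legend gives. In both pairs the biglycan well lies left of the CpG well for the genes of the left panel, as for Arg1 (19.2 against 7.20 TPM in wild type), and right of it for those of the right panel, as for Slc6a12 (40.1 against 89.2 TPM).

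Cxcl2, a chemokine for neutrophils that NF-kB drives, stood highest among the named higher genes. It was at 515 and 812 TPM without and with biglycan in wild type and at 269 and 387 TPM in the libraries labelled Bgn-/- (0.59 ± 0.09, limma adjusted p = 0.271). The related chemokines Cxcl1 and Cxcl3, chosen after their values were seen, went from 142 to 229 TPM and from 686 to 1125 TPM in wild type and from 90.4 to 122 TPM and from 225 to 271 TPM in the other pair. All 3 were higher with biglycan in each genotype. The 250 bases before the start of Cxcl2 (chr5:90903649-90903898, + strand) and Cxcl1 (chr5:90890995-90891244, + strand) are printed from RefSeq (GRCm38.p6), with a form of the NF-kB site (GGG, any 2 bases, TTTCC, on either strand) in capitals.

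Cxcl2: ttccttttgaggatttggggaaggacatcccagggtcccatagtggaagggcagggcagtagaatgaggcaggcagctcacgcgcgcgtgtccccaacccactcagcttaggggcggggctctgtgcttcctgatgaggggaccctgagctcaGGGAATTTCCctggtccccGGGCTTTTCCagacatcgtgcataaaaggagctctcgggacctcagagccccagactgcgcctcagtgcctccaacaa

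Cxcl1: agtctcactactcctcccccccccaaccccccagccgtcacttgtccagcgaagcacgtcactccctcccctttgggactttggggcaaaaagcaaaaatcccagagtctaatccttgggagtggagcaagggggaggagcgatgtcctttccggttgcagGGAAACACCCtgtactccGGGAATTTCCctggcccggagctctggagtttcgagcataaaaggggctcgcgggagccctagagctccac

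Each window holds 2 matches, 97 and 78 bases before the start in Cxcl2 and 89 and 71 in Cxcl1. Searched on both strands, the letters occur in 1.65% of 27025 such windows, and in 6 of the 24 (25.0%) that the table holds for the cytokine and chemokine list. A match of letters is a description and shows no binding.

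The same genes were then read in the 6 other pairs of wells that differ by an added protein: biglycan with LPS in wild type and Bgn-/-, and lumican with CpG or LPS in wild type and Lum-/-. The wild-type pairs of both proteins share their CpG well and their LPS well, so values are given side by side. For Arg1 they were -0.86 and -0.86 for biglycan with LPS, -1.10 and -1.43 for lumican with CpG, and -0.85 and -1.82 for lumican with LPS. Slc6a12 differed by 0.66 to 1.13 over the 8 pairs. In the 6 other pairs Mfn1 ran from -0.23 to 0.43, Apbb3 from -1.34 to 0.28 and Qpct from -0.25 to 0.09, so these genes did not keep 1 sign.

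With the 2 pairs compared, 3 others make 5 pairs that share no well: biglycan with LPS in both genotypes and lumican with CpG in Lum-/-. Of all genes, 10.8% were higher and 3.79% lower with protein in all 5, or 6.46% and 7.88% after median-of-ratios scaling. Arg1, Cxcl13, Fcgr4, Wfdc21, Cacna1d, Tgfbi and Iigp1 were lower in all 5, and Slc6a12 and Tnfrsf23 higher, also under both scalings. Fxyd2, Csf1 and Cxcl2 were higher in all 5 as deposited, but not after quantile normalization, nor, for Fxyd2 and Csf1, after median-of-ratios scaling. In the 3 others 13 of the 24 genes named for a shared direction had the same sign as here in all 3 (54.2%), against 24.1% of the 6979 genes with a shared sign. The 24 were chosen for large differences at 10 TPM or more, so the 6979 are not a like background. A limma test of biglycan against lumican under CpG called 1 of 11518 genes (0.00868%), a gene model, with 445 at an unadjusted p under 0.05. Arg1 differed between the proteins by -0.06 ± 0.24 and Slc6a12 by 0.01 ± 0.15, while Mfn1 was 0.66 ± 0.15 and Qpct 0.62 ± 0.14 higher with biglycan (limma adjusted p = 0.997 for Mfn1 and Qpct). No named gene was thus called different between the proteins.

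**Figure D3:**
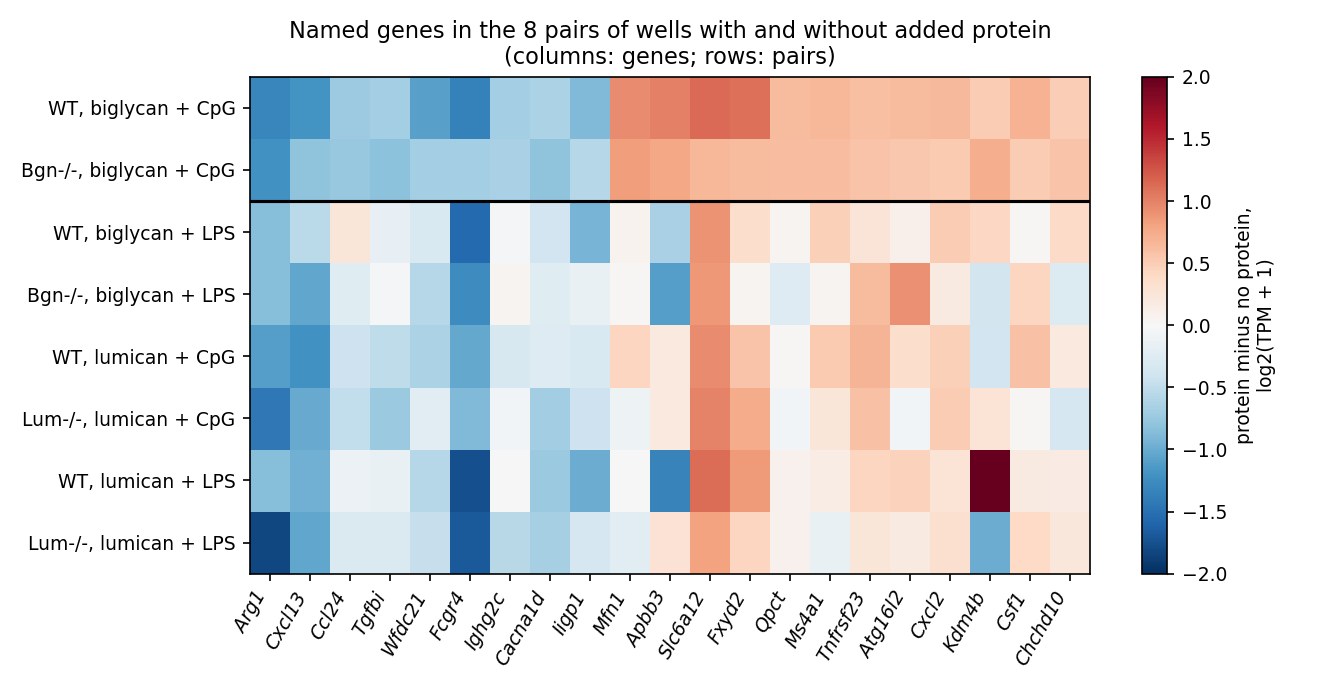
Difference between wells with and without added protein on the log2(TPM + 1) scale for named genes in 8 pairs of wells, with colours that stop at 2 in either direction. Arg1 ranges from -1.82 to -0.85 and Slc6a12 from 0.66 to 1.13, while Mfn1 and Qpct vary in sign; wild-type pairs share control wells.

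The pairs were unlike in the interferon-stimulated genes, the antiviral program that type I interferon turns on, though the difference between them did not pass the test over all genes. In wild type all 45 listed genes were lower with biglycan (29.4% of all genes were), 22 of them at least 2-fold, with a median of -0.99 against 0.11 for all genes. In the pair labelled Bgn-/- 26 were lower (44.2% of all genes were) and 19 higher (55.6%), 0 of them 2-fold, with a median of -0.003 against 0.02. Their summed level was 5645 and 3064 TPM in wild type and 2413 and 2422 TPM in the other pair. None was called in either direction over both pairs, and 45 of 45 were lower in wild type after median-of-ratios scaling and after quantile normalization as well.

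Ifit3, an antiviral protein, was at 158 and 31.9 TPM without and with biglycan in wild type, but at 18.7 and 21.1 TPM in the libraries labelled Bgn-/-. The wild-type CpG well was the high one. Ifit1 had the same form, at 88.5 and 26.3 TPM and at 19.1 and 16.9 TPM, and so had Ifit2, at 76.3 and 15.4 TPM and at 9.36 and 9.17 TPM. Irf7, the factor that links TLR9 to interferon, was at 268 and 119 TPM and at 68.7 and 70.2 TPM, and Isg15, a ubiquitin-like protein chosen after its values were seen, at 298 and 109.6 TPM and at 81.9 and 75.9 TPM. In all 5 genes the other 3 libraries lay below the wild-type CpG well. The 250 bases before the start of Ifit3 (chr19:34583279-34583528, + strand), Ifit1 (chr19:34640639-34640888, + strand) and Isg15 (chr4:156200819-156201068, - strand) are printed from RefSeq (GRCm38.p6), with a form of the interferon-stimulated response element (GAAA, any 2 bases, GAAA, on either strand) in capitals.

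Ifit3: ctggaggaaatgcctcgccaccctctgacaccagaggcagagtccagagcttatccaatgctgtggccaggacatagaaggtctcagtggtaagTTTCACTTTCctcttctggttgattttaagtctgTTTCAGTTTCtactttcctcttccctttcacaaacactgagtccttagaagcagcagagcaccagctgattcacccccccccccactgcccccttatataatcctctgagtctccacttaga

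Ifit1: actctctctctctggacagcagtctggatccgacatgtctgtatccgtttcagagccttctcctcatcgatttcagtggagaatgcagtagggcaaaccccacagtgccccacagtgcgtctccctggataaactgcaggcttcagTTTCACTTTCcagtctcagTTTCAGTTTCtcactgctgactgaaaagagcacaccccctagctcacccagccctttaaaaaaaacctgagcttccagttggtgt

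Isg15: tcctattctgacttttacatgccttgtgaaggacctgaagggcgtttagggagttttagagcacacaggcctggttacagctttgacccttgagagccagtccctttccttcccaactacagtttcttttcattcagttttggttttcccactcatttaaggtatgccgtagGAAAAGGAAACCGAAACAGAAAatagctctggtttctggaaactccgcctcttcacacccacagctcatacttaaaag

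Ifit3 and Ifit1 hold 2 matches each and Isg15 holds 3 that overlap. Searched on both strands, the letters occur in 3.46% of 27025 windows and in 18 of the 33 (54.5%) that the table holds for the listed interferon-stimulated genes.

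The level without biglycan differed between the genotypes. The median of the 45 genes, as log2(TPM + 1), was 5.52 in untreated wild type, 6.48 with CpG and 5.75 when biglycan was added to CpG. Under the Bgn-/- label it was 5.10 untreated, 5.50 with CpG and 5.55 with both. CpG alone thus stood further above untreated in wild type than under the Bgn-/- label. Wild type with lumican and CpG was at 6.45, and Lum-/- at 6.99 with CpG and 6.68 with lumican and CpG. Under LPS the genes stood at 8.96 without and 8.598 with biglycan in wild type, and at 8.78 and 8.76 in the libraries labelled Bgn-/-. Of the unstimulated libraries, those labelled Lum-/- untreated and Bgn-/- with biglycan alone had only 2.32 and 2.43 M estimated reads and stood at 6.62 and 6.57. These 2 libraries differed from each other by less than the sampling noise (SD of log2 ratios 0.182 over 5583 genes, against 0.288 from counting error at the estimated depth) and may be 1 library under 2 labels. Both enter the fits of all 21 libraries, and the library labelled Bgn-/- also enters the fit of 15. Both scalings, and the choice of the most abundant transcript, were made over all 21 libraries and so include them.

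The test of the difference between the pairs (wild type minus Bgn-/-, limma, 14 stimulated libraries) called 0 of 11518 genes (0%). At an unadjusted p under 0.05 there were 385 of all 11518 genes and 42 of the 45 listed interferon-stimulated genes. That list was chosen with earlier results of these data known. Ifit3 differed by -2.43 ± 0.30 (limma adjusted p = 0.173, and 0.0179 to 1.0 over 10 alternatives), Ifit1 by -1.60 ± 0.22 (adjusted p = 0.185) and Irf7 by -1.19 ± 0.19 (adjusted p = 0.216). When gene models, pseudogenes and receptor segments were left out, a choice made after seeing the data, limma called 15 of 10519 genes, each with the lower difference in wild type. A fit of all 21 libraries, which reads a genotype shift over all treatments, turned the sign for Ifit3 (0.197), Ifit1 (0.332) and Irf7 (0.653). Of the 15 genes called among 10519, 12 are on the interferon-stimulated list of 45 genes, and the others are Ifi209, Phf11b and Trim30d. Mast cell markers also differed between the genotypes: 12 markers summed to 148 and 109 TPM in wild type, with 0 of them at 0, and to 6.21 and 7.25 TPM in the libraries labelled Bgn-/-, with Fcer1a at 0 in the CpG library and Mrgprb2 at 0 in the biglycan library. Their part in the result was not tested.

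**Figure D4:**
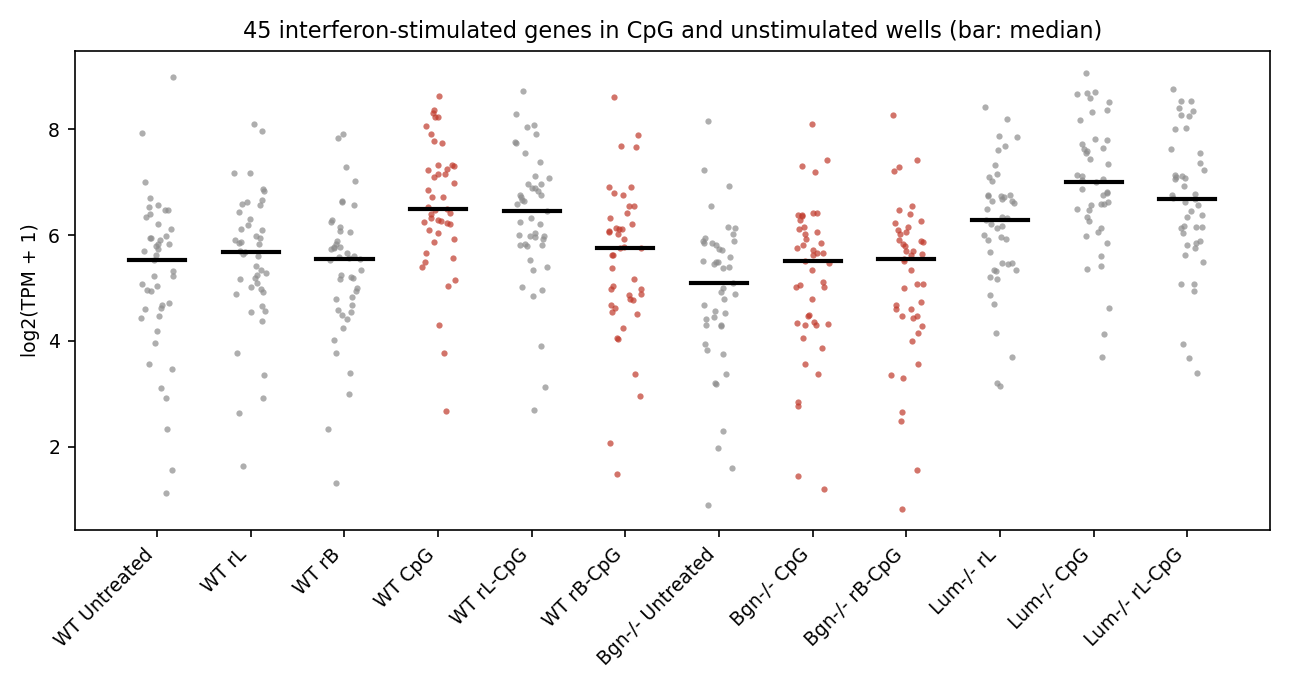
Level of 45 interferon-stimulated genes (points, log2(TPM + 1)) and their median (bar) in 12 unstimulated and CpG wells, without the 2 shallow libraries, with the 4 libraries compared in red. The median is 6.48 in wild type with CpG and 5.75 with biglycan and CpG, against 5.50 and 5.55 in the libraries labelled Bgn-/-.

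The interferon receptor subunits differed little: Ifnar1 was at 87.0 and 90.4 TPM in wild type and 100.3 and 98.6 TPM in the other pair, and Ifnar2 at 268 and 255 TPM and 258 and 243 TPM. Of the interferon list 5 of 10 genes passed the filter on low values and 0 were called. Ifnb1, interferon beta, chosen after its values were seen, was at 0.354 and 0 TPM in wild type and listed at 0 in both libraries labelled Bgn-/-.

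The receptors of both ligands were measured in all 4 libraries. Tlr9, the CpG receptor, was at 4.07 and 4.96 TPM without and with biglycan in wild type and at 4.67 and 4.19 TPM in the other pair (0.05 ± 0.18), with opposite signs. Unc93b1, the chaperone that carries TLR9 to endosomes, was at 386 and 406 TPM and 432 and 459.6 TPM, and Myd88 at 104 and 96.9 TPM and 95.4 and 96.2 TPM. Irak1, a kinase next to MYD88, was at 89.1 and 125 TPM and 103 and 121 TPM, higher with protein in all 5 pairs that share no well. Of the 28 tested genes of TLR9 sensing, 13 were higher in both pairs (43.3% of all genes were), 1 lower in both (17.1%) and 0 called. Their medians were 0.11 and 0.04, against 0.11 and 0.02 for all genes, and after median-of-ratios scaling 8 were higher and 8 lower in both.

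Tlr2 was at 512 and 543 TPM in wild type and at 449.7 and 484 TPM in the pair labelled Bgn-/- (0.10 ± 0.08). Tlr4 was at 40.5 and 48.8 TPM and 38.0 and 43.8 TPM (0.23 ± 0.08), and Cd14, the co-receptor of both, at 696 and 869 TPM and 735 and 819 TPM (0.24 ± 0.07). Median-of-ratios scaling lowered these 3 values to 0.016, 0.15 and 0.16. Cd36, a scavenger receptor that works with TLR2, was at 405 and 553 TPM and 443 and 577 TPM (0.41 ± 0.06, limma adjusted p = 0.29), and Nlrp3, the inflammasome sensor, at 91.0 and 123 TPM and 72.8 and 94.5 TPM (0.40 ± 0.07). Both were higher in all 5 pairs that share no well. Both biglycan wells also lay above both CpG wells, a separation whose share over all genes was not counted. Of the 20 genes of this pathway, 8 were higher in both pairs (43.3% of all genes were), 2 lower in both (17.1%) and 0 called. Their medians were 0.11 and 0.03, against 0.11 and 0.02 for all genes. After median-of-ratios scaling 6 were higher and 5 lower in both.

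Cytokine genes went both ways, with medians of -0.06 and -0.01 against 0.11 and 0.02 for all genes. Of 37 tested cytokine and chemokine genes, 11 were higher in both pairs (43.3% of all genes were), 13 lower in both (17.1%) and 0 called. After median-of-ratios scaling 9 were higher and 16 lower in both, against 28.1% and 31.9% of all genes. Tnf was at 339 and 410.3 TPM in wild type and at 218 and 262 TPM in the pair labelled Bgn-/- (0.27 ± 0.11, limma adjusted p = 0.587), and the difference was 0.097 in the fit of all 21 libraries. Il6 was at 15.8 and 13.6 TPM and 7.72 and 9.12 TPM, against 3334 TPM in wild type and 3515 TPM in Bgn-/- with LPS, and had opposite signs in the pairs. Il10, an anti-inflammatory cytokine, was at 17.3 and 15.8 TPM and 19.6 and 19.2 TPM (-0.08 ± 0.11). Il1b was at 283 and 286 TPM and 191 and 144 TPM, lower with biglycan under the Bgn-/- label. Cxcl10, an interferon-driven chemokine, was at 62.1 and 20.5 TPM and 13.6 and 11.3 TPM, and was lower with protein in all 5 pairs that share no well.

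Genes that CpG or LPS moves were found in wells outside the comparison. A gene counted as raised or lowered where lumican with the stimulus differed at least 2-fold from lumican alone, the same way in wild type and Lum-/-, with a mean of at least 5 TPM in the higher state. The 95 genes raised by CpG had medians of -0.01 and -0.11 with biglycan, below the 0.11 and 0.02 of all genes. In wild type 46 were higher and 48 lower (70.4% and 29.4% of all genes), and in the pair labelled Bgn-/- 19 and 75 (55.6% and 44.2%). Among those with the strongest response, Cdca7, named after its values were seen, was at 14.9 and 11.4 TPM and 13.8 and 10.1 TPM. The 71 genes lowered by CpG had medians of 0.11 and 0.06, the 561 raised by LPS -0.07 and -0.01 and the 2598 lowered by LPS 0.14 and 0.04. Ccl2 and Ccl7, monocyte chemokines also named after their values were seen and among the genes that LPS raised most, went from 25.8 to 19.6 TPM and from 9.01 to 4.73 TPM in wild type and from 8.65 to 5.86 TPM and from 2.54 to 1.38 TPM in the other pair.

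**Figure D5:**
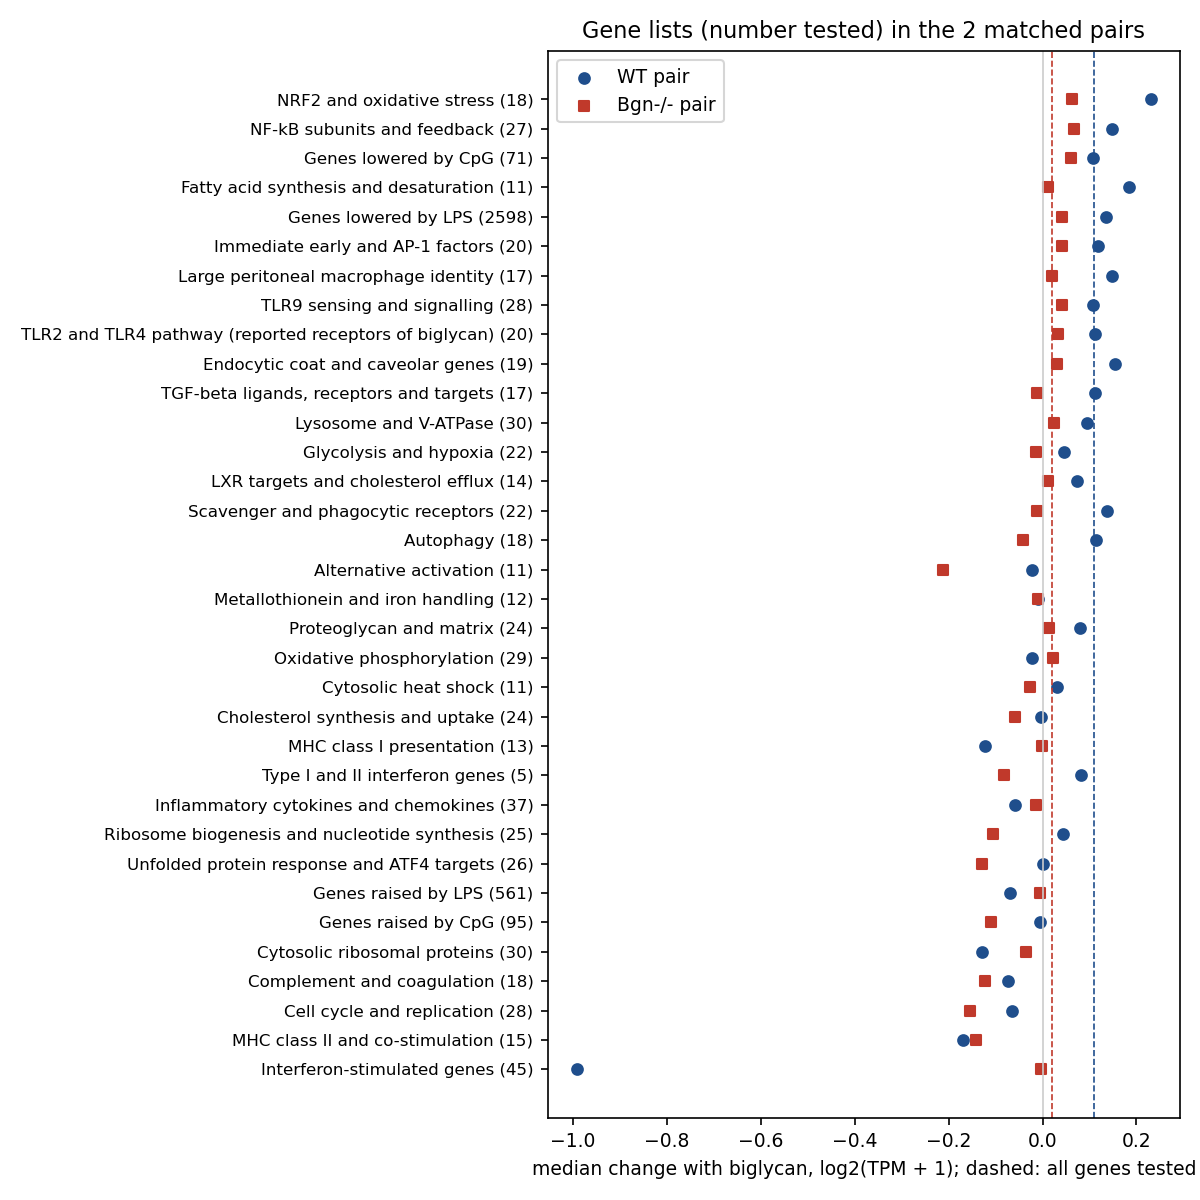
Median difference with biglycan on the log2(TPM + 1) scale for the pathway and response lists, in the wild-type pair and in the pair labelled Bgn-/-, beside the medians of all genes (0.11 and 0.02). The interferon-stimulated genes stand apart in wild type, at -0.99.

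Among factors downstream of the receptors, 17 of 27 NF-kB subunit and feedback genes were higher in both pairs (43.3% of all genes were), 4 lower in both (17.1%) and 0 called. After median-of-ratios scaling 14 were higher and 5 lower in both (28.1% and 31.9% of all genes). The medians of this list were 0.15 and 0.07, or 0.01 and 0.04 after that scaling. Nfkb1 was at 156 and 179 TPM and 142 and 156 TPM. Socs3 and Socs1, inhibitors of cytokine signalling on that list, were lower. Socs3 was at 128 and 98.2 TPM and 124 and 98.5 TPM (-0.35 ± 0.07) and Socs1 at 5.25 and 3.41 TPM and 2.66 and 1.59 TPM (-0.50 ± 0.10), each lower with protein in all 5 pairs that share no well.

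Some groups leaned lower with biglycan by small amounts. Of all genes 17.1% were lower in both pairs and 43.3% higher in both, or 31.9% and 28.1% after median-of-ratios scaling. C1qa, a chain of the complement starter C1q, was at 189 and 129 TPM in wild type and 211 and 160.1 TPM in the pair labelled Bgn-/- (-0.47 ± 0.08, limma adjusted p = 0.34). The other chains had mean differences of -0.35 ± 0.07 (C1qb) and -0.31 ± 0.07 (C1qc), and all 3 were lower in the 5 pairs that share no well. Of 18 complement and coagulation genes, 12 were lower in both pairs, 5 higher in both and 0 called. H2-Aa, a class II chain that presents antigen to T cells, was at 300.4 and 243 TPM and 341 and 286 TPM, and H2-Eb1 at 205 and 154 TPM and 233 and 201 TPM. In the class II list 7 of 15 genes were lower in both pairs, 2 higher in both, 6 had opposite signs and 0 were called. Its medians were -0.17 and -0.14. Of 30 cytosolic ribosomal protein genes, 27 were lower in both pairs, 2 higher in both and 0 called. After quantile normalization 20 were lower in both, against 27.5% of all genes.

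Genes of NRF2, the factor of the antioxidant response, leaned upward: 11 of 18 were higher in both pairs (43.3% of all genes were), 1 lower in both (17.1%) and 0 called. After median-of-ratios scaling 9 were higher and 3 lower in both, against 28.1% and 31.9% of all genes. The medians of this list were 0.23 and 0.06, or 0.10 and 0.04 after that scaling. Gsr, glutathione reductase, was at 185 and 218 TPM and 197 and 232 TPM, and Cat, catalase, at 325 and 412 TPM and 345 and 376 TPM. Of 28 cell cycle and replication genes, 15 were lower in both pairs (17.1% of all genes were), 4 higher in both (43.3%) and 0 called. After median-of-ratios scaling 19 were lower and 3 higher in both (31.9% and 28.1% of all genes). Mcm2, a helicase subunit of replication, was at 14.7 and 12.1 TPM and 16.5 and 11.9 TPM.

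Markers of peritoneal macrophages were present in all 4 libraries. Of 17 tested identity genes, 7 were higher in both pairs (43.3% of all genes were), 3 lower in both (17.1%), 7 had opposite signs and 0 were called. These counts are near the shares of all genes. Adgre1, the antigen F4/80, was at 551 and 609 TPM in wild type and 578 and 586 TPM in the pair labelled Bgn-/-. Gata6, the factor of large peritoneal macrophages, was at 4.46 and 4.73 TPM and 5.78 and 6.91 TPM. Itgam, which encodes the selected CD11b and was chosen for that, was at 422 and 491 TPM and 459.7 and 457 TPM. Saa3, an acute-phase serum amyloid, was at 87130 and 66360 TPM and 74430 and 62370 TPM (-0.32 ± 0.06, limma adjusted p = 0.425).

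Opposite signs at 2-fold in both pairs were seen in 19 genes (0.165%). Rps27, a ribosomal protein gene with near-identical copies and so uncertain, was at 138 and 48.4 TPM in wild type and 218 and 1845 TPM in the pair labelled Bgn-/-. Rps27 is among these 19, while the genes that follow had opposite signs under 2-fold. Gnpnat1, an enzyme of amino sugar synthesis, was at 14.3 and 7.94 TPM and 9.73 and 13.2 TPM, and Mcpt4, a mast cell protease, at 24.2 and 14.3 TPM and 0.612 and 1.13 TPM. In the other direction Hirip3 was at 12.95 and 21.3 TPM and 29.5 and 17.9 TPM, and Swt1 at 6.63 and 12.6 TPM and 13.6 and 9.80 TPM. The limma test of the difference gave adjusted p-values of 1.0 for Rps27, 0.961 for Gnpnat1, 0.925 for Hirip3 and 0.483 for Swt1, so none passed.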

How the data were processed

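Libraries from a stranded kit were sequenced on an Illumina instrument, per the labels' protocols. The authors deposited 1 table of TPM per transcript for the 21 libraries; bcl2fastq 1.8.4, kallisto 0.44.0 and the build GRCm38 are listed, per the submitters' processing notes. Transcript TPM were summed per gene: of 89562 transcripts 82788 carry a gene name, 5423 of the other 6774 were matched to names in GENCODE mouse release 21, and 1351 (5350.9 to 7550.7 TPM per library) were left out, which gave 23544 genes. Genes were tested where their mean over the fitted libraries reached 1 TPM, 11550 in the main comparison. Values were tested as log2(TPM + 1) with limma 3.58.1 (R 4.3.3, eBayes with trend) and Benjamini-Hochberg adjustment, after the scripts had been tested on simulated data. The fit held CpG and LPS with and without biglycan in both genotypes, with 4 genotype-by-stimulus blocks and 2 residual degrees of freedom. The test of the difference between genotypes used 14 stimulated libraries, 6 blocks and 3 residual degrees of freedom. Sums, lists and plots were made in Python 3.11.15 with numpy 2.4.6, pandas 2.3.3 and matplotlib 3.10.9.

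TPM keeps no depth. Reads were estimated from 3693 single-transcript genes (length 1000 bases or more), taking fragments as 200 bases long; 66.2% to 69.5% of low values then fell within 0.2 of a whole read, against 40% for an even spread, so the depths are rough. Counting error at these depths is smallest for abundant genes.

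Samples were grouped by the labels. Named genes were up to 12 each way with the same sign in both pairs and at least 10 TPM, ranked by the smaller difference, up to 6 each way with opposite signs, and from each of 30 pathway and 10 marker lists the first 4 and the 3 with the largest difference; gene models were counted but not named. Members and lists were chosen with earlier results of these data known. Alternatives were other pseudocounts, filters, scalings, fits and pairs left out. Promoter windows came from RefSeq (GRCm38.p6).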

Additional observations from a re-analysis of the deposited data

How the results depend on the processing

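Alternatives were run for the genes read in any case and those named for a shared direction, not for genes taken from lists alone. These kept their sign with 7 exceptions: Tlr9 at -0.011 with median-of-ratios scaling; Il6 at -0.069 there, -0.005 with a pseudocount of 5, -0.064 with quantile normalization and -0.257 with the most abundant transcript; Csf1 at -0.111 with that transcript; and Il10 at 0.023 in a fit of 21 libraries. Fitting all 21 libraries turned the difference between genotypes to 0.332 for Ifit1, 0.197 for Ifit2, 0.197 for Ifit3, 0.176 for Ifit3b, 0.456 for Isg15, 0.653 for Irf7, 0.402 for Rsad2, 0.09 for Usp18, 0.421 for Oasl1 and 0.144 for Mcpt4. By construction that fit reads a genotype shift over all treatments. The most abundant transcript turned Gnpnat1 to 0.076.

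The count of genes called by limma over both pairs, 0, became 23 with the 4 libraries alone, 14 without the Bgn-/- LPS pair, 17 without the wild-type LPS pair, 3 with no genotype block, 3 with a pseudocount of 5, 2 with robust eBayes, 2 with 15 libraries, and 1 each with 14 libraries and a mean of at least 5 TPM. The count for the difference between genotypes, 0, became 369 with no filter, 15 without gene models (added after seeing the data), and 1 each with 8 libraries and a pseudocount of 5. Counts at 2-fold were 19 in both pairs, 191 in wild type and 128 in Bgn-/-; they became 47, 367 and 246 with a pseudocount of 0.1, 3, 74 and 32 with 5, 6, 84 and 34 with a mean of at least 5 TPM, 29, 324 and 252 with no filter, and 3, 98 and 41 with protein-coding genes. They were 85, 668 and 353 at 1.5-fold and 5, 45 and 37 at 4-fold, and the most abundant transcript gave 29 in both pairs. The median of CpG-raised genes over both pairs, -0.087, was -0.163 with median-of-ratios scaling and -0.006 without the Bgn-/- pair. Except where fewer genes or libraries entered, the cause was not tested. Genes near 1 TPM rest on few reads, and their fold counts follow the pseudocount.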

Other observations

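Matrix enzymes, stress genes and metabolic genes were also read in the pairs; none was called. Mmp9, a gelatinase of leukocytes, was at 47.3 and 69.1 TPM without and with biglycan in wild type and at 37.3 and 51.7 TPM in the libraries labelled Bgn-/- (0.50 ± 0.14, limma adjusted p = 0.579), higher with biglycan in both. Mt1 and Mt2, the zinc-binding metallothioneins, were at 331 and 290.2 TPM and 52.8 and 34.1 TPM in wild type and at 353 and 247 TPM and 38.4 and 30.8 TPM in the other pair, lower with protein in all 5 pairs that share no well. Klf2, a factor that restrains macrophage activation, was at 17.5 and 25.1 TPM and 20.2 and 26.6 TPM, higher in all 5. Pfkfb3, which sets the pace of glycolysis, was at 32.4 and 26.9 TPM and 35.2 and 28.9 TPM, lower in all 5, while Gpi1, the glycolytic glucose phosphate isomerase, was at 287 and 357 TPM and 301 and 342 TPM, higher in all 5. The glycolysis and hypoxia list of 22 genes held 9 higher in both pairs (43.3% of all genes were) and 6 lower in both (17.1%).

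Lysosomal genes leaned upward by about the size of the shift of all genes. Of 30 lysosome and V-ATPase genes, 17 were higher in both pairs (43.3% of all genes were) and 3 lower in both (17.1%), with medians of 0.10 and 0.02. After median-of-ratios scaling 6 were higher and 15 lower in both, and after quantile normalization 13 and 4. Of 22 scavenger and phagocytic receptor genes, 7 were higher in both pairs and 6 lower in both, against the same 43.3% and 17.1% of all genes. Lipa, the lysosomal acid lipase, was at 536 and 613 TPM and 571 and 632 TPM. Cd163, the scavenger receptor for haemoglobin, was at 4.50 and 7.11 TPM and 4.33 and 6.32 TPM, higher in both pairs, and Fcgr1, the high-affinity IgG receptor, at 44.4 and 11.2 TPM and 14.02 and 11.5 TPM, lower in all 5 pairs that share no well. Of 26 genes of the unfolded protein response, 13 were lower in both pairs (17.1% of all genes were) and 4 higher in both (43.3%). The medians of this list were 0.00 and -0.13, against 0.11 and 0.02 for all genes.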
